A study of Mus musculus with 12 samples.

Results

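Genes that mark T cells and natural killer (NK) cells, with Cd6, were examined in cultured peritoneal macrophages (PMs), to ask whether they moved together over groups and single arrays or singly. The 10 genes were Cd6, Cd5, Cd3e, Cd3g, Cd2, Lck, Nkg7, Klrb1c, Gzma and Il2rb, chosen as markers with the exosome contrast of these arrays already known. A value was read for 8 of them, among 18193 genes in all. Lck and Klrb1c are not analysed here: the platform annotation used did not list a probe set for Lck, and the probe set it listed for Klrb1c names several genes. Expression came from 12 Affymetrix mouse arrays, 2 in each of 6 groups. PMs were transfected with antagomir-21, an inhibitor of miR-21-5p, with a scramble control, or were given lipofectamine, and each of these was exposed to exosomes of sensory neurons that overexpressed miR-21 or a GFP reporter. The lipofectamine groups are named in the labels only and were read as reagent without oligonucleotide. Per the methods, PMs came from peritoneal lavage of C57BL/6 mice and were selected by adhesion to the dish, not by a sort, so other peritoneal cells that stay on the dish are not removed by a gate. The age and sex of the animals behind each array were not known. The labels do not say whether the 2 arrays of a group came from separate cultures, so p-values measure only the spread between these arrays.

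T cells recognize antigen through the T cell receptor, whose signal is carried by the CD3 chains and by the kinase Lck. CD5 and CD6 are related scavenger receptor family proteins on T cells that tune this signal, and CD2 is an adhesion and costimulatory receptor shared by T and NK cells. NK and cytotoxic T cells kill with granule proteins such as granzyme A, and respond to IL-2 and IL-15 through a receptor chain encoded by Il2rb. Resident peritoneal lavage holds macrophages beside B cells, T cells and other leukocytes. In RNA of a whole culture, fewer cells of a type and less RNA per cell cannot be told apart.

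The exosomes differed in miR-21, and its mature form is shown because it defines the contrast. The sequence is that of RefSeq for GRCm38.p6, chr11:86584120-86584141 on the minus strand, written 5′ to 3′ with the seed (bases 2 to 8) in capitals.
mmu-miR-21a-5p: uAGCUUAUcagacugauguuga

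Promoter windows of 300 bases (250 before to 50 after the start), from RefSeq for GRCm38.p6, are shown for 3 of the genes: Cd3e and Cd3g, the pair with the highest correlation after group means were removed, and Gzma, the gene next to Cd6 in size of the exosome difference. All 3 lie on the minus strand, at chr9:45009562-45009861, chr9:44980382-44980681 and chr13:113100932-113101231, and are written 5′ to 3′ along the gene. Capitals mark the ETS core motif GGAA on either strand (TTCC on the other).
Cd3e: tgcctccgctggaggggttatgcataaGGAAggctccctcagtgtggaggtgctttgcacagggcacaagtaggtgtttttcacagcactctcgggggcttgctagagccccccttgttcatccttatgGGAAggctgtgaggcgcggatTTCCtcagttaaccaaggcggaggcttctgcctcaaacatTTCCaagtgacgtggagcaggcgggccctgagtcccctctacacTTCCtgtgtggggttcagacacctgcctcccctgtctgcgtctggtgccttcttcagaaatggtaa
Cd3g: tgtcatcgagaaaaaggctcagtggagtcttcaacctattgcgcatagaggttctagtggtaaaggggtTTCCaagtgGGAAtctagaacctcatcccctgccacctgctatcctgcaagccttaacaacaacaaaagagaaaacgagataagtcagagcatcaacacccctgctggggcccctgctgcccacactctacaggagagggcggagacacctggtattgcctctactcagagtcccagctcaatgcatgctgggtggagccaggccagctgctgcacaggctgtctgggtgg
Gzma: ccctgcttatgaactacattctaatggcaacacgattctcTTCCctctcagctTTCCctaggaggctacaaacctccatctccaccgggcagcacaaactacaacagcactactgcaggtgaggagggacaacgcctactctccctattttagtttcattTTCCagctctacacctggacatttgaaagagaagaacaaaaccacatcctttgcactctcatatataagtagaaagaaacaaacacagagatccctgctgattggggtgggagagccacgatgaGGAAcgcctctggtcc

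The ETS core occurred 5 times in the window of Cd3e, 2 times in that of Cd3g and 4 times in that of Gzma. Of 32851 windows of this length, 28.6% held at least 5, 84.6% at least 2 and 46.3% at least 4. The E-box motif CANNTG, which reads the same on both strands, occurred 2, 4 and 3 times in Cd3e, Cd3g and Gzma, and 39.6%, 6.49% and 17.6% of windows held at least as many. The 2 motifs shared 1 base in Cd3e, 1 in Cd3g and 0 in Gzma. A match describes the letters of the window only. Windows were found for 5 of the 8 measured genes.

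Most values of the markers lay within the range of genes not expected in macrophages. Values are log2 signals, and a probe set's signal also depends on its sequence, so levels of different genes are not ranked. As a reference for genes not expected in macrophages, 39 olfactory receptor genes were read on the same arrays. Of the 96 values of the 8 genes over 12 arrays, 91 lay within the range of the olfactory receptor genes on the same array, 3 lay above it and 2 below it. That range is wide: on each array its upper end (9.07 to 10.25) was above the upper quartile of all probe sets (9.05 to 9.52). A value within it is therefore not shown to be background, and the share of all genes within it was not computed. By mean, the 8 genes lay above 8 (Cd6) to 35 (Cd3e and Cd2) of the 39. In mean over the arrays, 0 of the 8 genes and 11 of 12 macrophage genes lay above all 39 olfactory receptor genes. The share of all genes with a mean above all 39 was not computed, so nothing is read from the 0 of 8. Among the macrophage genes, Csf1r, the receptor for the growth factor of macrophages, had a mean of 16.43 and Lyz2, lysozyme, one of 16.94, so defining markers of the labelled cell type were present. Cd3d, a further CD3 chain named after its values were seen, had a mean of 5.52 (3.23 to 8.11). None of the 8 genes had a value of 0.

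**Figure D1:**
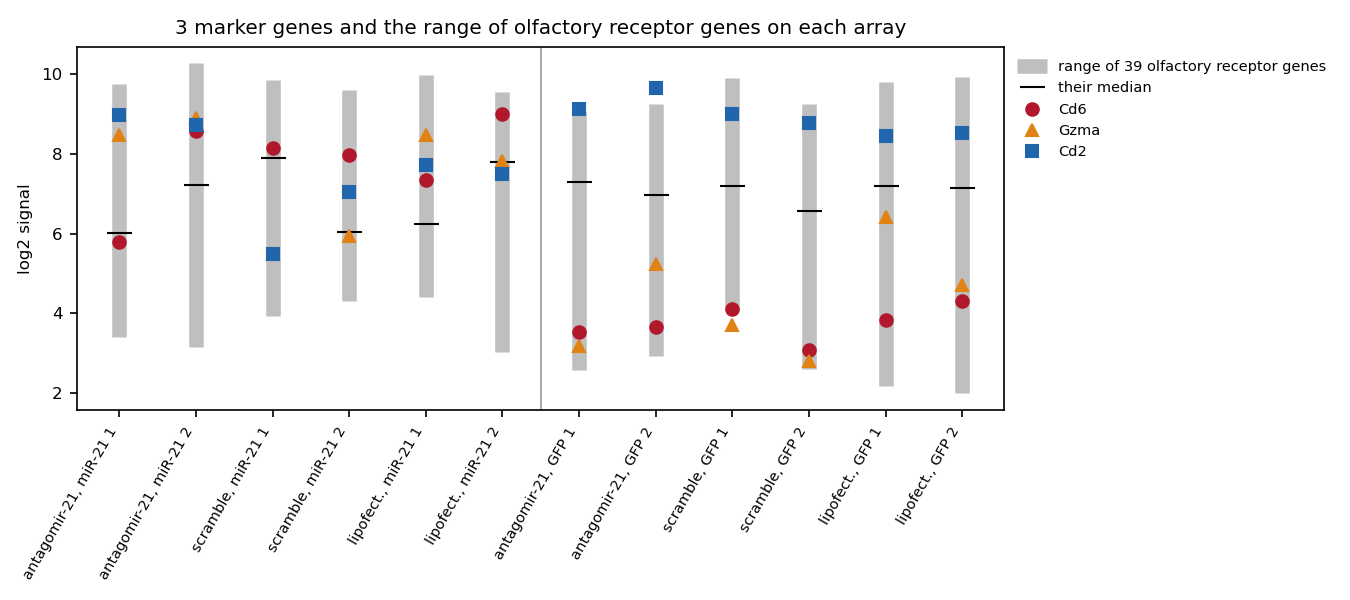
Log2 signal of Cd6 (circles), Gzma (triangles) and Cd2 (squares) on each of 12 arrays, named on the x axis by transfection, exosome and replicate, miR-21 exosomes to the left of the line; grey bars give the range and black ticks the median of 39 olfactory receptor genes. Cd6 lies in the lower end of the grey bars on the 6 GFP arrays, with 1 to 8 of the 39 genes below it, and higher in them on the 6 miR-21 arrays, with 19 to 35 below it.

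Cd6, whose protein binds the adhesion molecule ALCAM, was higher in PMs with miR-21 exosomes. It lies at chr19:10789339-10830062 (GRCm38.p6). With miR-21 exosomes its log2 signals were 5.79 and 8.57 in antagomir-21–transfected PMs, 8.14 and 7.96 in scramble-transfected PMs and 7.33 and 9.0 with lipofectamine. With GFP exosomes they were 3.54 and 3.65 in antagomir-21–transfected PMs, 4.12 and 3.08 in scramble-transfected PMs and 3.85 and 4.31 with lipofectamine. All 6 miR-21 arrays were above all 6 GFP arrays. The mean log2 signal was 7.80 ± 1.13 with miR-21 exosomes and 3.76 ± 0.44 with GFP exosomes (SD, n = 6 each). The log2 difference was 4.04 (SE 0.62). It was 3.58 in antagomir-21–transfected PMs, 4.45 in scramble-transfected PMs and 4.09 with lipofectamine, and it was 3.58 to 4.50 when any 1 array was left out. These values chose the gene and are given without a test. The exosome groups did not overlap for 0.286% of all genes, and for 0.192% with miR-21 higher. With values below the olfactory median of each array set to that median, the log2 difference was 0.78.

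By transfection, the 6 group means of Cd6 fell into 2 levels. From low to high, the 3 groups with miR-21 exosomes were at 7.18 ± 1.96 (antagomir-21), 8.05 ± 0.13 (scramble) and 8.16 ± 1.18 (lipofectamine), and the 3 with GFP exosomes at 3.60 ± 0.08 (antagomir-21), 3.60 ± 0.74 (scramble) and 4.08 ± 0.33 (lipofectamine) (log2 signal, SD, n = 2 each). Within each level, neighbours differed by less than the spread between replicates of the wider group. Antagomir-21 less scramble gave −0.44 over both exosomes (SE 0.76, limma adjusted p = 1.0), with a 95% interval of −2.13 to 1.26. The direction turned to 0.26 without antagomir-21 replicate 1 with miR-21 exosomes.

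Gzma, granzyme A, was the other gene with a wide exosome difference, and it also differed by transfection. With miR-21 exosomes its log2 signals were 8.47 and 8.88 in antagomir-21–transfected PMs, 5.5 and 5.93 in scramble-transfected PMs and 8.47 and 7.81 with lipofectamine. With GFP exosomes they were 3.19 and 5.25, 3.71 and 2.80, and 6.43 and 4.70 in the same order of transfections. The exosome sets overlapped through lipofectamine replicate 1 with GFP exosomes, and within each transfection they did not overlap. With 2 arrays against 2, this was so for 30.9% of all genes in antagomir-21–transfected PMs, 28.8% in scramble-transfected PMs and 35.4% with lipofectamine. The mean was 7.51 ± 1.44 with miR-21 exosomes and 4.35 ± 1.37 with GFP exosomes (SD, n = 6 each), a log2 difference of 3.16 (SE 0.58) given without a test, or 0.87 with low values set to the olfactory median.

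Cd5, which is also carried by the B-1a cells of the peritoneal cavity, lies at chr19:10718107-10739026, beside Cd6. Its log2 signals with miR-21 exosomes ran from 6.21 to 8.75 with a median of 8.0, and with GFP exosomes from 2.92 to 8.13 with a median of 5.61. The GFP arrays were spread widely, and 3 of them, antagomir-21 replicate 2 (8.13), scramble replicate 2 (6.28) and lipofectamine replicate 1 (7.82), lay among the miR-21 arrays. The mean was 7.82 ± 0.89 with miR-21 exosomes and 5.59 ± 2.19 with GFP exosomes (SD, n = 6 each), a log2 difference of 2.23 (SE 0.99). The 12 measured B cell genes averaged 8.11 to 9.21 per array with miR-21 exosomes and 8.27 to 9.57 with GFP exosomes. In the exosome comparison 2 of the 12 were above 0 and 10 below (median log2 difference −0.28), beside 49% of all genes above 0. Among the 2 was Pax5, at 3.14, and among the 10 was Cr2, at −1.93. In mean signal, 8 of the 12 lay above all 39 olfactory receptor genes. The part of the B cell genes in the Cd5 values was not tested.

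The CD3 chains did not share the pattern of Cd6. With miR-21 exosomes Cd3e had log2 signals of 9.22 and 9.11 in antagomir-21–transfected PMs, 9.36 and 4.91 in scramble-transfected PMs and 6.74 and 10.36 with lipofectamine. With GFP exosomes it had 8.87 and 3.14, 8.82 and 8.42, and 8.82 and 8.97 in the same order. Single arrays stood low with either exosome, and the exosome difference was 0.44 on the log2 scale (SE 1.13).

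Cd3g had 7.08 and 9.06 in antagomir-21–transfected PMs, 5.62 and 4.71 in scramble-transfected PMs and 4.63 and 7.05 with lipofectamine, all with miR-21 exosomes. With GFP exosomes it had 8.49 and 4.61, 9.40 and 7.56, and 7.34 and 7.36 in the same order. The exosome sets overlapped, and the log2 difference was −1.10 (SE 0.82).

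Cd2 and Nkg7 lay lower with miR-21 exosomes. Cd2 had log2 signals of 8.97 and 8.71, 5.5 and 7.05, and 7.71 and 7.5 with miR-21 exosomes in antagomir-21, scramble and lipofectamine PMs, and 9.11 and 9.65, 9.0 and 8.78, and 8.43 and 8.51 with GFP exosomes in that order. Within each transfection both miR-21 arrays were below both GFP arrays. With 2 arrays against 2, groups did not overlap, in either direction, for 30.9% of all genes with antagomir-21, 28.8% with scramble and 35.4% with lipofectamine. Over all arrays the exosome sets of Cd2 overlapped. The mean was 7.57 ± 1.25 with miR-21 exosomes and 8.91 ± 0.45 with GFP exosomes (SD, n = 6 each), a log2 difference of −1.34 (SE 0.49). Nkg7, a protein of cytotoxic granules, had 3.69 and 3.59, 4.65 and 5.21, and 8.84 and 5.95 with miR-21 exosomes, and 7.83 and 5.61, 8.83 and 7.52, and 7.07 and 4.16 with GFP exosomes. Its miR-21 arrays were below its GFP arrays in antagomir-21 and scramble PMs, and the 2 sets overlapped with lipofectamine, where the mean was higher with miR-21 exosomes (log2 difference 1.78). Over the 3 transfections the log2 difference was −1.52 (SE 0.76).

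Il2rb had log2 signals of 7.80 and 7.10 in antagomir-21–transfected PMs, 5.79 and 5.90 in scramble-transfected PMs and 5.54 and 7.72 with lipofectamine, all with miR-21 exosomes. With GFP exosomes it had 3.74 and 7.57, 8.40 and 8.68, and 4.27 and 7.64 in the same order. Both scramble arrays were low with miR-21 exosomes and high with GFP exosomes. Its mean was 6.64 ± 1.02 with miR-21 exosomes and 6.72 ± 2.15 with GFP exosomes (SD, n = 6 each), a difference of −0.07 (SE 0.84). It was the only one of the 8 genes with a second probe set. The 2 probe sets correlated at r = −0.42 over 12 arrays (rho = −0.38), so they gave no common level, and with both averaged the exosome difference was 0.24.

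**Figure D2:**
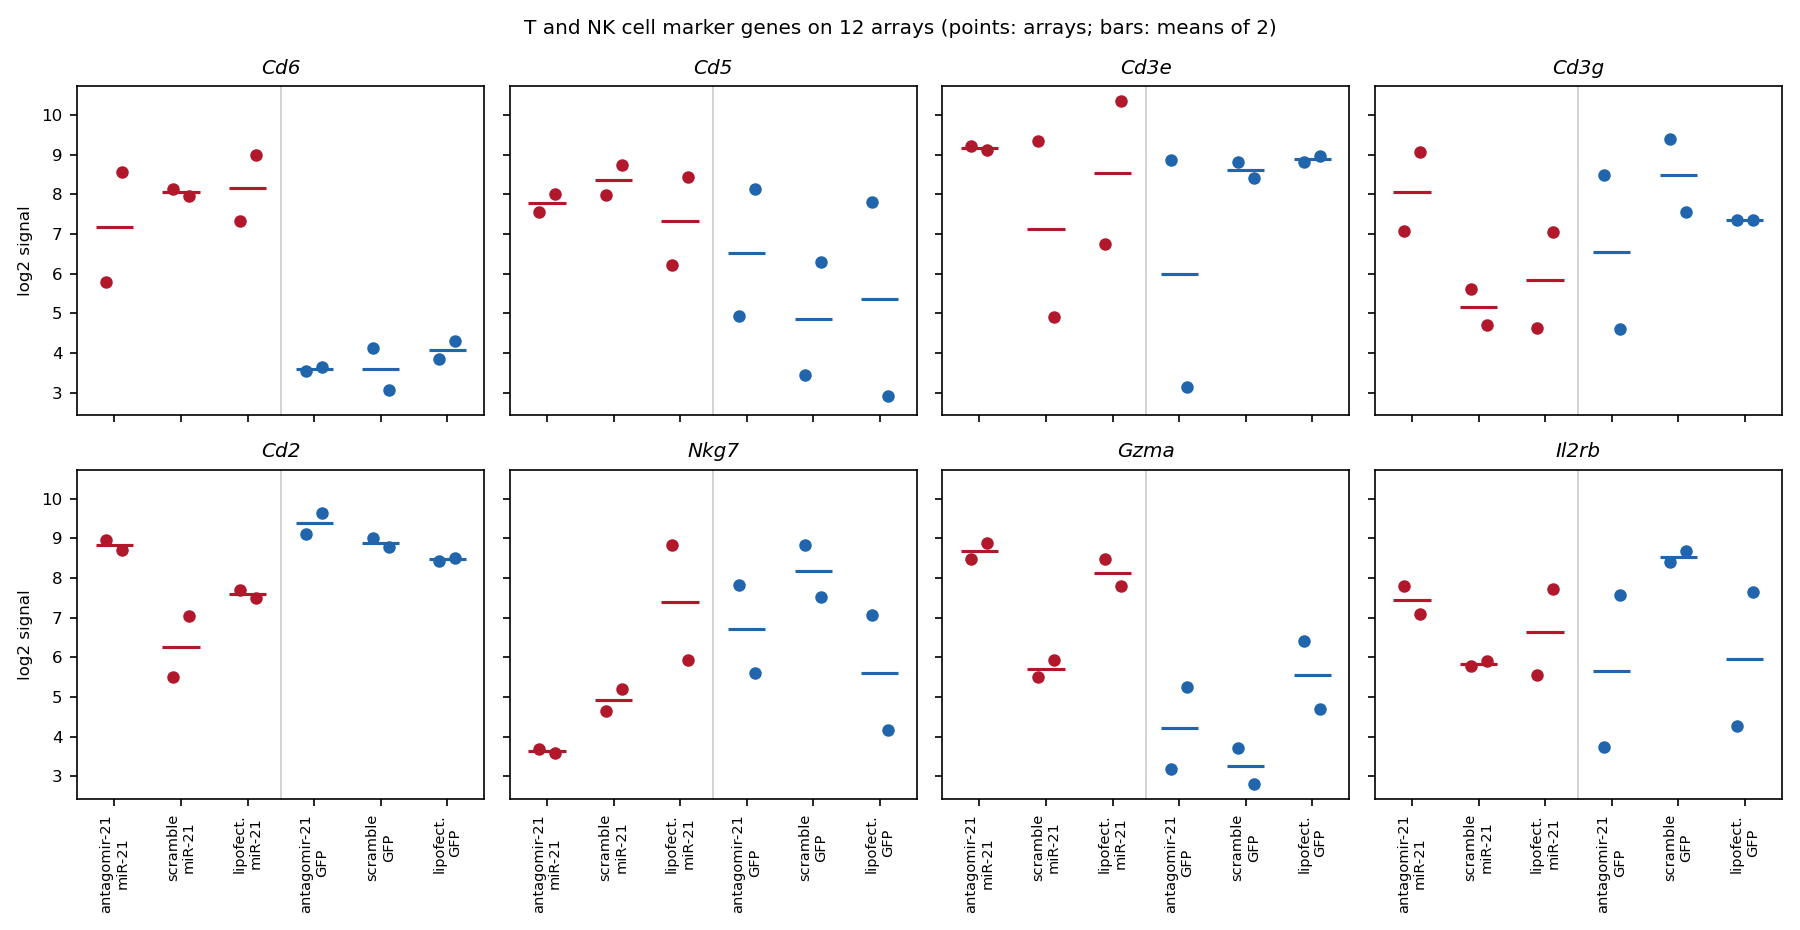
Log2 signal (y axis) of the 8 measured genes in the 6 groups (x axis: transfection and exosome), with 1 point per array and a bar at the mean of 2; miR-21 exosomes are red and to the left, GFP exosomes blue. Cd6 separates at 5.79 and above with miR-21 exosomes against 4.31 and below with GFP exosomes, while the other genes overlap between the exosomes.

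Counted over the 8 genes, the exosome difference was above 0 for 4 and below 0 for 4, beside 49% of all genes above 0. The median log2 difference was 0.18, against −0.02 over all genes. At an unadjusted p under 0.05 the background was 5.45% of all genes, and nothing is read from the genes' own count, since this contrast chose them. Median centring moved the median of all genes to −0.23 and lowered each of the 8 differences by the same amount. The direction of Cd6, Cd5, Gzma, Cd3g, Cd2 and Nkg7 was the same under quantile normalization, median centring and the mean over probe sets. That of Il2rb turned with the mean over probe sets, and that of Cd3e turned to −0.01 with low values set to the olfactory median.

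**Figure D3:**
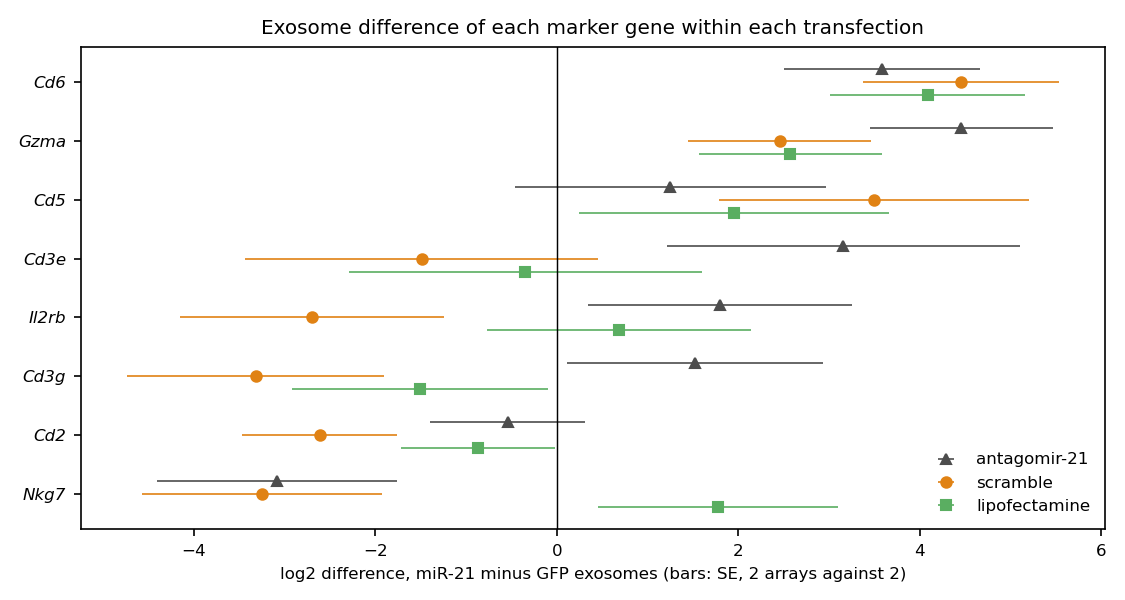
Log2 difference of miR-21 less GFP exosomes (x axis) for each of the 8 genes (y axis), separately for antagomir-21 (triangles), scramble (circles) and lipofectamine PMs (squares), with bars of 1 SE from the limma fit, 2 arrays against 2. Cd6, Gzma and Cd5 are above 0 in each transfection, Cd2 is below 0 in each, and the other 4 genes fall on both sides of 0.

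The antagomir was compared with the scramble to ask what inhibition of miR-21 in the PMs did to these genes. The paper reports that antagomir-21 lowered miR-21 in PMs only in part. Gzma and Cd2 were higher in antagomir-21–transfected PMs at an unadjusted p under 0.05, 2 of the 8 genes against 5.16% of all genes (939), and 1.68% with the antagomir higher. Gzma averaged 6.45 ± 2.71 in antagomir-21–transfected PMs and 4.49 ± 1.48 in scramble-transfected PMs (SD, n = 4 each), a log2 difference of 1.96 (SE 0.71, limma adjusted p = 0.823). Cd2 averaged 9.11 ± 0.40 in antagomir-21–transfected PMs and 7.58 ± 1.64 in scramble-transfected PMs (SD, n = 4 each), a log2 difference of 1.53 (SE 0.60, limma adjusted p = 0.900). No gene of the 18193 passed the adjusted threshold in this comparison, by limma with Benjamini-Hochberg adjustment. The other 6 genes had log2 differences of −1.37 (Nkg7) to 0.54 (Cd5), and the median over the 8 was 0.10, against 0.00 over all genes. Both calls were lost with low values set to the olfactory median (log2 differences of 0.98 for Gzma and 0.93 for Cd2). They were also lost without scramble replicate 2 (1.74 for Gzma, 1.47 for Cd2) or antagomir-21 replicate 2 (1.45 and 1.40), both with GFP exosomes, and that of Cd2 without scramble replicate 1 (1.14) or antagomir-21 replicate 1 (1.46), both with miR-21 exosomes.

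By exosome, both antagomir differences had their larger value with miR-21 exosomes. There, Gzma differed by 2.96 (SE 1.01, limma adjusted p = 0.772) and Cd2 by 2.57 (SE 0.85, limma adjusted p = 0.756), with the antagomir-21 arrays above the scramble arrays, as was so for 11.3% of all genes. With GFP exosomes the differences were 0.96 for Gzma (SE 1.01) and 0.49 for Cd2 (SE 0.85), neither past the unadjusted threshold. The difference between exosomes did not pass it either: the interaction was 2.0 for Gzma (SE 1.43) and 2.07 for Cd2 (SE 1.21). With miR-21 exosomes, both calls were lost with low values set to the olfactory median (1.72 for Gzma, 1.37 for Cd2) and without scramble replicate 1 (2.75 and 1.79). That of Gzma was also lost without antagomir-21 replicate 2 (2.76).

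Cd3g was the gene with an antagomir-by-exosome interaction at an unadjusted p under 0.05, 1 of 8 against 5.36% of all genes. Antagomir-21 less scramble was 2.91 with miR-21 exosomes and −1.93 with GFP exosomes, and the interaction was 4.84 (SE 2.0, limma adjusted p = 0.888). Cd3e had values of the same shape, 2.03 with miR-21 exosomes and −2.62 with GFP exosomes (interaction 4.65, SE 2.76, limma adjusted p = 1.0). With GFP exosomes, both genes were low on the same array, antagomir-21 replicate 2. It read 3.14 for Cd3e and 4.61 for Cd3g, beside 8.87 and 8.49 on replicate 1. Without that array the interaction was 1.78 for Cd3e and 2.91 for Cd3g. Il2rb had 1.61 with miR-21 exosomes and −2.89 with GFP exosomes (interaction 4.49, SE 2.06, limma adjusted p = 0.935). With its 2 probe sets averaged, the Il2rb difference with miR-21 exosomes turned to −0.16 and the interaction was 0.95. The median interaction over the 8 genes was 2.04, against −0.12 over all genes, and Cd6, at −0.87, lay on the other side of 0. The Cd3g interaction was 1.87 and below the threshold with low values set to the olfactory median. It missed the threshold without scramble replicate 1 (5.30) or replicate 2 (4.39) with miR-21 exosomes, antagomir-21 replicate 2 with miR-21 exosomes (3.86), scramble replicate 1 with GFP exosomes (3.92) or antagomir-21 replicate 2 with GFP exosomes (2.91).

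Scramble against lipofectamine asked what the transfected oligonucleotide itself did. Gzma was lower with scramble: 4.49 ± 1.48 in scramble-transfected PMs and 6.85 ± 1.67 with lipofectamine (SD, n = 4 each), a log2 difference of −2.37 (SE 0.71, limma adjusted p = 1.0). It was −2.42 with miR-21 exosomes and −2.31 with GFP exosomes, and both scramble arrays were below both lipofectamine arrays with either exosome, as was so in either direction for 26.4% of all genes with miR-21 exosomes and 31.8% with GFP exosomes. It stayed past the unadjusted threshold when any 1 of the 12 arrays was left out (−2.80 to −1.93). The call was lost with low values set to the olfactory median (−0.73). It was also lost, at the same difference of −2.37, in an ordinary unpaired t test without moderation on the compared arrays alone. That test pooled both exosomes within each transfection, so the exosome difference of Gzma added to its spread. It therefore cannot show what leaving out moderation alone did. Gzma was the only one of the 8 genes at this threshold, against 4.14% of all genes. Antagomir-21 and lipofectamine groups of Gzma were thus both above scramble, and the 2 comparisons share the scramble arrays.

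Nkg7 differed between exosomes in this comparison. Scramble less lipofectamine was −2.47 with miR-21 exosomes and 2.56 with GFP exosomes, and the difference between them was −5.02 (SE 1.87, limma adjusted p = 1.0, 3.8% of all genes at this unadjusted threshold).

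Over single arrays, pairs of genes correlated in both directions. The mean Pearson r over the 28 pairs of genes was −0.02 over 12 arrays (−0.68 to 0.71), against 0.00 for pairs of all genes with an SD of 0.34. It was 0.15 with low values set to the olfactory median, −0.06 after group means were removed, 0.12 over the 6 arrays with miR-21 exosomes and −0.09 over the 6 with GFP exosomes. Of the 28 pairs, 3 had an unadjusted permutation p under 0.05 and 0 an adjusted one. The mean over the 8 genes was 6.30 to 7.98 on the miR-21 arrays and 5.95 to 6.97 on the GFP arrays, which overlap. Each array had 3 to 6 of the 8 genes above their own medians.

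Cd6 falls into 2 clusters by exosome, so its correlations were read within each exosome, over 6 arrays. With Gzma, r was −0.24 with miR-21 exosomes and 0.45 with GFP exosomes. With Cd5 it was 0.47 and −0.55, and with Cd2 −0.41 and −0.26, in that order. The sign of r with Gzma and with Cd5 differed between the exosomes.

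The pair with the highest r after group means were removed was Cd3e and Cd3g. Over 12 arrays r was 0.68 (permutation p = 0.0105, adjusted p = 0.119 over 28 pairs), and rho was 0.29 (permutation p = 0.366). Without the 2 arrays farthest from the median of Cd3e, r was 0.39, so part of the relation rested on those arrays. Within exosomes it was 0.68 with miR-21 and 0.87 with GFP, over 6 arrays each, and 0.60 over 11 arrays without antagomir-21 replicate 2 with GFP exosomes. After group means were removed it was 0.81. Since each group has 2 arrays, this last value rests on 6 within-group differences. Cd3d correlated with Cd3e at r = −0.16 (rho = 0.08) and with Cd3g at r = −0.25 (rho = −0.39) over the same 12 arrays.

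Among the other pairs, Cd2 and Gzma had r = 0.89 over the 6 miR-21 arrays and −0.18 over the 6 GFP arrays. Nkg7 and Il2rb had r = −0.91 after group means were removed.

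**Figure D4:**
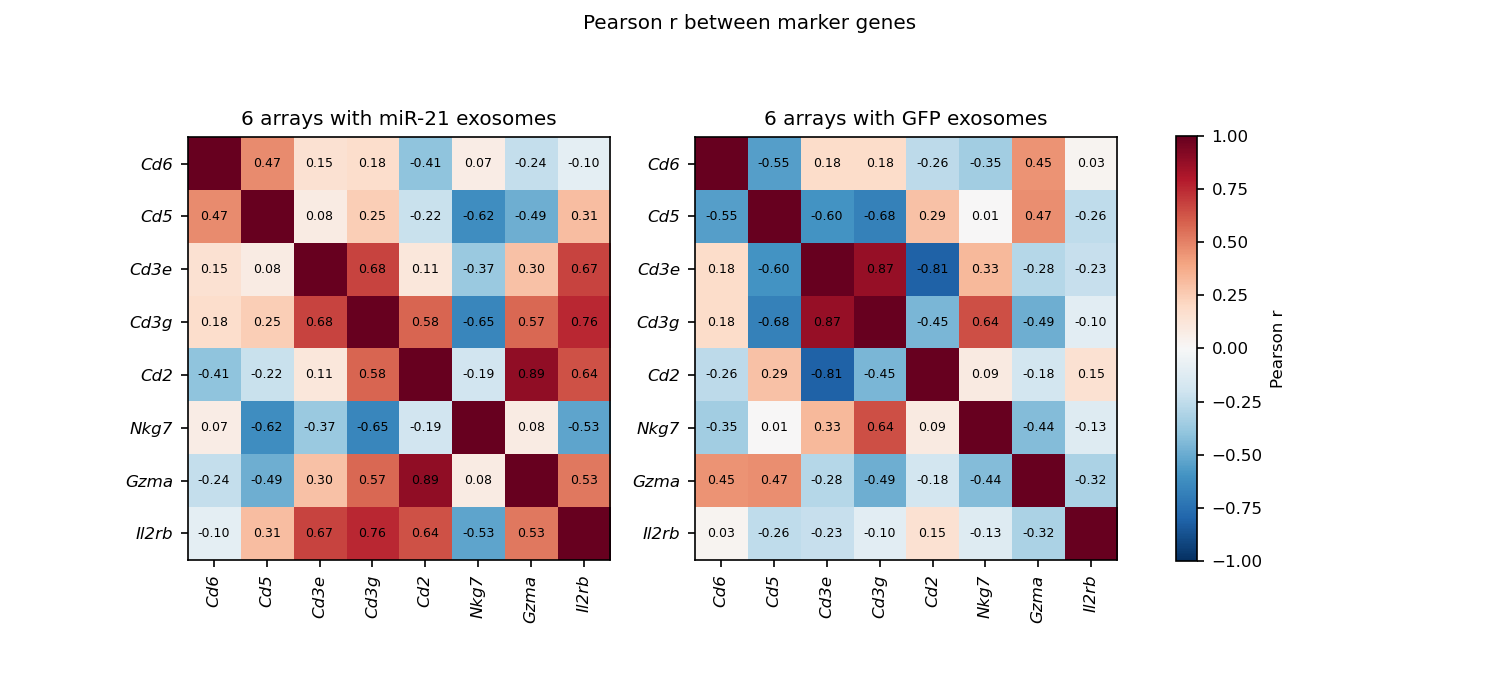
Pearson r between the 8 genes (both axes), over the 6 arrays with miR-21 exosomes (left) and the 6 with GFP exosomes (right), on a colour scale from −1 (blue) to 1 (red). The Cd3e and Cd3g pair is positive in both panels (0.68 and 0.87), and Cd6 is not positive with all other genes in either panel.

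The genes with the pattern most like that of Cd6 over the 12 arrays were Sema5b (r = 0.89), Celf6 (0.87), 6820408C15Rik (0.86), Klk10 (0.86) and Plekhh2 (0.85), and those most opposed were Ttc27 (−0.91), Eqtn (−0.90) and B4gat1 (−0.87). The exosome split that all of them share with Cd6 enters these values. Within the exosomes, r with miR-21 and with GFP was −0.04 and 0.51 for Sema5b, and 0.84 and 0.32 for Celf6. It was 0.30 and 0.84 for 6820408C15Rik, 0.75 and 0.78 for Klk10, and 0.40 and 0.75 for Plekhh2. For the opposed genes it was −0.81 and −0.10 (Ttc27), −0.67 and 0.51 (Eqtn), and −0.90 and −0.22 (B4gat1). The genes were picked by r on these same arrays, so these values are no separate test. None of these is a T or NK cell marker of the lists used here.

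Further genes of the same cell types were read from lists. Of 17 measured genes of the T cell receptor complex and its signalling, 10 of T cell identity and 17 of NK and cytotoxic cells, the exosome groups did not overlap for 0, beside 0.286% of all genes, and at that share nothing is read from a count of 0 over these lists. Of the 17 receptor complex genes, 11 were above 0 and 6 below (median log2 difference 0.41). Of the 10 identity genes, 2 were above 0 and 8 below (median −0.54), and of the 17 cytotoxic genes, 9 were above and 8 below (median 0.21). The mean of the receptor complex genes was 6.77 to 8.37 per array with miR-21 exosomes and 6.68 to 7.92 with GFP exosomes. That of the cytotoxic genes was 6.59 to 7.60 with miR-21 exosomes and 6.81 to 7.82 with GFP exosomes, and that of the identity genes 7.39 to 9.52 with miR-21 exosomes and 8.38 to 9.60 with GFP exosomes. All 3 ranges overlap between the exosomes.

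In the antagomir comparison, 2 of the 17 receptor complex genes were lower in antagomir-21–transfected PMs at an unadjusted p under 0.05, against 3.48% of all genes lower, and 0 were higher. They were Cd247, the CD3 zeta chain (log2 difference −2.13, limma adjusted p = 0.773), and Themis, a T cell signalling protein (−2.80, limma adjusted p = 0.822). The direction of both was opposite to that of Cd2 and Gzma. Scramble less lipofectamine was 2.09 for Cd247 and 2.03 for Themis, and the 2 comparisons share the scramble arrays. Of the 17 genes 13 were below 0, with a median of −1.06. In the same comparison 7 of 9 dendritic cell genes were below 0 (median −1.08), 7 of 9 sensory neuron genes were below 0 (median −0.47) and 8 of 12 macrophage genes were above 0 (median 0.67), and their part in these values was not tested. Cd160, a receptor of NK and T cells, was the cytotoxic gene at this threshold (−1.90, limma adjusted p = 0.945), 1 of 17. Of the 10 identity genes 0 passed it in either direction. In mean signal, 3 of the 17 receptor complex genes, 6 of the 10 identity genes and 1 of the 17 cytotoxic genes lay above all 39 olfactory receptor genes. Examples are Fyn, a kinase of the T cell receptor pathway that other blood cells also use, at 10.69, and Il7r, the receptor chain for IL-7, at 12.80. The share of all genes above all 39 was not computed.

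In the interaction of antagomir and exosome, 3 of the 17 receptor complex genes, 2 of the 10 identity genes and 2 of the 17 cytotoxic genes were at an unadjusted p under 0.05, against 5.36% of all genes. Among the receptor complex genes, Cd8a, a chain of the CD8 co-receptor, had −8.47 (SE 1.92, limma adjusted p = 0.593) and Themis −5.09, while Cd28, a costimulatory receptor, had 4.47. The identity genes were Ccr7, a chemokine receptor, at 4.24 and Gata3, a transcription factor, at 3.13. The cytotoxic genes were Klrk1, the receptor NKG2D, at −5.89 and Klra8, an NK cell receptor, at 4.01. The values run in both directions.

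Among ligands and partners, Alcam, the ligand of CD6, had a mean log2 signal of 14.62 and was 14.38 ± 0.49 with miR-21 exosomes and 14.85 ± 0.97 with GFP exosomes (SD, n = 6 each), so the exosome sets overlapped. Cdcp1, a further ligand of CD6, had 7.72 ± 1.87 with miR-21 exosomes and 6.92 ± 1.71 with GFP exosomes. Of the 10 measured genes, 4 were above 0 in the exosome comparison and 6 below, with a median of −0.17. Cdcp1 had the antagomir-by-exosome interaction at an unadjusted p under 0.05 (log2 value 5.14), 1 of 10 against 5.36% of all genes.

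Other cell types were read on the same arrays. The 12 macrophage genes averaged 11.06 to 11.83 per array with miR-21 exosomes and 10.98 to 12.13 with GFP exosomes. The 9 dendritic cell genes averaged 7.02 to 8.56 with miR-21 exosomes and 6.12 to 8.54 with GFP exosomes, and the 8 mast cell genes 7.24 to 8.75 with miR-21 exosomes and 7.32 to 8.29 with GFP exosomes. The 9 sensory neuron genes, read because the exosomes came from sensory neurons, averaged 5.49 to 7.74 with miR-21 exosomes and 5.64 to 7.86 with GFP exosomes. All of these ranges overlap between the exosomes.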

How the data were processed

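For 12 Affymetrix Mouse 430V2 arrays, log2 signals of probe sets were deposited by the authors. Each array had been scaled to 1 trimmed mean (496 to 499 with 2% removed at each end, linear scale). The methods describe RMA with quantile normalization, but array medians (7.92 to 8.58) and SDs (2.04 to 2.48) differ, so no quantile normalization is visible in them. Their software is not given in the sources used. No values were transformed further. Amplification kits are NuGEN in the labels and WT Pico in the methods. The methods state triplicates, and 2 arrays per group are analyzed here.

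Of 45037 probe sets, 34945 had 1 gene symbol, 932 several and 9160 were not listed in the annotation used. Each of 18193 genes was represented by its probe set with the highest mean. Tests used limma 3.58.1 (R 4.3.3): lmFit on 6 group means, eBayes, 6 residual degrees of freedom before moderation, and Benjamini-Hochberg adjustment over 18193 genes. The code was tested on simulated data. The unadjusted p under 0.05 is the methods' threshold. Pearson r and its permutation p-values (100000 permutations) were computed with numpy 2.4.6, and ranks and the adjustment over pairs with scipy 1.17.1. Genes named outside the 10 were the up to 4 per list with the highest mean or an unadjusted p under 0.05, and the 5 most and 3 least correlated with Cd6, and Cd3d, chosen after its values were seen. The genes and lists were chosen with earlier results of these data known. The number of arrays limits precision. Alternatives were quantile normalization, median centring, averaged probe sets, values below the olfactory median set to it, genes below the median signal left out, other models, and each array left out in turn.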

Additional observations from a re-analysis of the deposited data

Results flagged for a closer look

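Of 40 sets of 4 or 6 arrays examined for a lone array, 3 had one, where chance gives about 1 in 20. Cd3e was 3.14 on antagomir-21 replicate 2 with GFP exosomes, against 8.42 to 8.97 on the other GFP arrays. The same 3.14 stood apart among the 4 antagomir-21 arrays, where the others were at 8.87 to 9.22. Cd3g was 4.63 on lipofectamine replicate 1 with miR-21 exosomes, against 7.05 to 7.36 on the other lipofectamine arrays.

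For 3 genes all arrays of a transfection moved one way with miR-21 exosomes and the other way with GFP exosomes. The same was so for 4.43% of all genes in antagomir-21 less scramble and 3.79% in scramble less lipofectamine. Il2rb differed by 1.61 with miR-21 exosomes and −2.89 with GFP exosomes in antagomir-21 less scramble (interaction by limma, adjusted p = 0.935). With the 2 probe sets of Il2rb averaged, the difference with miR-21 exosomes was −0.16. Cd2 differed by −1.33 with miR-21 exosomes and 0.42 with GFP exosomes in scramble less lipofectamine (interaction by limma, adjusted p = 1.0). Nkg7 differed by −2.47 with miR-21 exosomes and 2.56 with GFP exosomes in scramble less lipofectamine (interaction by limma, adjusted p = 1.0). Of these 3 interactions, that of Nkg7 had an unadjusted p under 0.05.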

How the results depend on the processing

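Depth is not defined for arrays. These values are limited by 2 arrays per group and by signals mostly within the wide olfactory range. The antagomir count of 2 genes became 0 with low values set to the olfactory median and 0 with an unpaired test. The scramble count of 1 (Gzma) and the interaction count of 1 (Cd3g) became 0 under those 2 settings. For antagomir and scramble, the unpaired test pooled both exosomes, so differences between exosomes added to its spread. The SE of the Gzma antagomir difference was 0.71 in the main fit and 1.54 in that test. For the interaction, the unpaired test kept the groups apart. Leaving out genes below the median signal (7.91) removed Gzma (mean 5.93) and Cd3g (6.91), so that setting cannot test their calls. Cd2 stayed in it and kept its antagomir call (log2 difference 1.53). Arrays of equal replicate number did not deviate together: 15 correlations between groups ran from −0.19 to 0.17. With the replicate number as a block the interaction count was 2 genes. The mean pairwise r of −0.02 was 0.15 with low values set to the olfactory median; the cause of these changes was not tested.

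With low values set to the olfactory median, the antagomir difference turned to 0.38 for Cd3e, and the scramble difference to 0.066 for Cd2 and −0.17 for Nkg7. Nkg7 was −0.076 for scramble with median centring and −0.22 for the interaction with quantile normalization, and Cd5 was −0.47 for scramble with quantile normalization. With 1 array left out, antagomir differences ran from −1.13 to 0.26 (Cd6), −0.26 to 1.34 (Cd5), −1.73 to 1.14 (Cd3e), −0.48 to 1.46 (Cd3g) and −1.60 to 0.32 (Il2rb). Scramble differences ran from −0.71 to 0.12 (Cd6), −0.96 to 1.49 (Cd5), −1.96 to 0.27 (Cd3e), −0.38 to 0.83 (Cd3g) and −0.68 to 0.77 (Nkg7), and interactions from −2.26 to 0.52 (Cd6) and −0.94 to 1.28 (Nkg7). Where an array is left out, the lone array of its group is assumed to vary like the others.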
